A study of Arabidopsis thaliana with 12 samples.

Results

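The genes described here are 53 nuclear genes of Arabidopsis thaliana that encode the photosynthetic apparatus, among 20905 loci that passed the filter on dim probes. They were chosen by locus identifier: 4 LHCA and 14 LHCB antenna proteins, 10 photosystem II (PSB) and 12 photosystem I (PSA) subunits, 5 electron carriers and their reductases, and 8 enzymes or subunits of carbon fixation. The array carried probes for 53 of the 53, with 60 probes in all, and 53 of the 53 were tested. The brightest probe stands for a gene with several.

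Light-harvesting chlorophyll proteins collect light and pass its energy to the reaction centres of photosystems II and I in the thylakoid membrane of the chloroplast. Photosystem II oxidises water, the cytochrome b6f complex and plastocyanin carry the electrons on, and photosystem I with ferredoxin-NADP reductase (FNR) makes the reductant that the Calvin cycle uses to fix CO2 through Rubisco. The reaction centre cores are made in the plastid, while the genes here lie in the nucleus and are known to be expressed together under the control of light, plastid signals and transcription factors such as the GLK and GATA families. Inflorescence meristems hold small, immature plastids, and sepals are the first floral organs to become green.

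The tissue came from inflorescences of ap1-1 cal-1 plants with the transgene pAP1:AP1-GR, in which the floral regulator APETALA1, joined to a glucocorticoid receptor domain and driven by its own promoter, can be switched on with dexamethasone (DEX). All samples shared this genotype, including the loss of AP1 and CAL that turns the inflorescence into a mass of meristems. Tissue was taken at day 0, with no DEX, and after 2, 4 and 8 days of daily DEX, in 4 biologically independent sets. Each of the 12 arrays carried RNA of neighbouring time points of 1 set. Per the methods each sample pooled inflorescences of many plants, and the day 0 tissue was taken right after a mock solution was applied. No mock-treated tissue of a later day was analysed here, so that days of DEX and days of growth cannot be told apart.

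Values are log2 ratios of the later over the earlier day, with 4 arrays per step in the order of sets 1 to 4, so that 1 unit is a doubling. The later day was in Cy5 in sets 1 and 3 and in Cy3 in sets 2 and 4. A split between these pairs of sets cannot be told apart from an effect of the dye. A gene was called when its Benjamini-Hochberg adjusted p in limma was below 0.05 and its change at least 1.8-fold. Counts at an adjusted p below 0.05 with no fold minimum are given as well, because most changes here were smaller than 1.8-fold. The day 2 over day 0 arrays of sets 3 and 4 had scanner files that did not match their deposited ratios (16.3% and 20.2% of probes equal within 0.0001 on the log10 scale, against 99.98% to 99.99% on the other 10 arrays). The deposited ratios were used for all 12 arrays, and the counts and medians of the 53 genes and of their role groups at day 2 are given with and without these 2. The day 8 over day 4 array of set 2 carried 1340 probes marked as outlier spots, against 19 to 110 on the other 11. By the headers of their scanner files, all 4 arrays of day 2 over day 0 lay on 1 slide of their own. This step and the slide then cannot be told apart. For sets 3 and 4 these are the files that did not match, so the slide of their ratios is uncertain. In whole inflorescences, fewer green cells and less RNA per green cell cannot be told apart either.

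The tissue carried the markers of an inflorescence that begins to make flowers. Of 10 genes listed for meristems and young flowers, 6 rose at day 2 at an adjusted p below 0.05 and 1 fell, the meristem gene STM (-0.53). These are 60% and 10%, against 18.0% and 31.8% of all genes. Those that rose included AP3, SEP3 and AG, which specify floral organs, with 5.41, 3.19 and 2.88 on the log2 scale. At day 8 over day 4, 3 of the 10 rose (30%, against 24.0% of all genes) and 6 fell (60%, against 34.6%). CLV3, a stem cell marker, was at -2.18. The stress and touch list (10 genes, including WRKY40 and AOX1A) moved strongly at each step: its median per array lay between 3.80 and 5.93 at day 2 over day 0, between -2.89 and -2.51 at day 4 over day 2, and between 1.18 and 2.70 at day 8 over day 4. Its part in the results below was not tested. Of the 5 reference genes, UBQ10 was called once (0.91, day 8 over day 4) and the other 4 were not called at any step.

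The 53 genes moved little and together. They were slightly lower at day 2, higher at day 4, and on balance level at day 8. At day 2 the median change was -0.27 (1.2-fold lower, quartiles -0.37 and -0.12), against -0.10 over all genes. Of the 53 fitted changes 49 were below 0 (92.5%), against 63.3% of all genes. At day 4 the median was 0.32 (1.25-fold higher, quartiles 0.27 and 0.50), against 0.06 over all genes. Here 53 of 53 lay above 0, against 60.9% of all genes. At day 8 over day 4 the median was 0.01 (quartiles -0.08 and 0.27), against -0.08 over all genes. From day 0 to day 8 the 3 steps added up to a median of 0.15 (quartiles -0.05 and 0.51), against -0.11. The changes were packed closely: their SD across the 53 genes was 0.28, 0.21 and 0.26 at the 3 steps, against 0.96, 0.61 and 0.90 across all genes tested. Of the 53, 48 were not called at any step. When the 10 matching scanner files were background corrected by normexp and normalised by loess instead, the medians were -0.11 at day 2 and 0.20 at day 4, 2 genes fell and 5 rose at an adjusted p below 0.05 in these steps, and the calls at 1.8-fold among the 53 genes described below were lost.

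**Figure D1:**
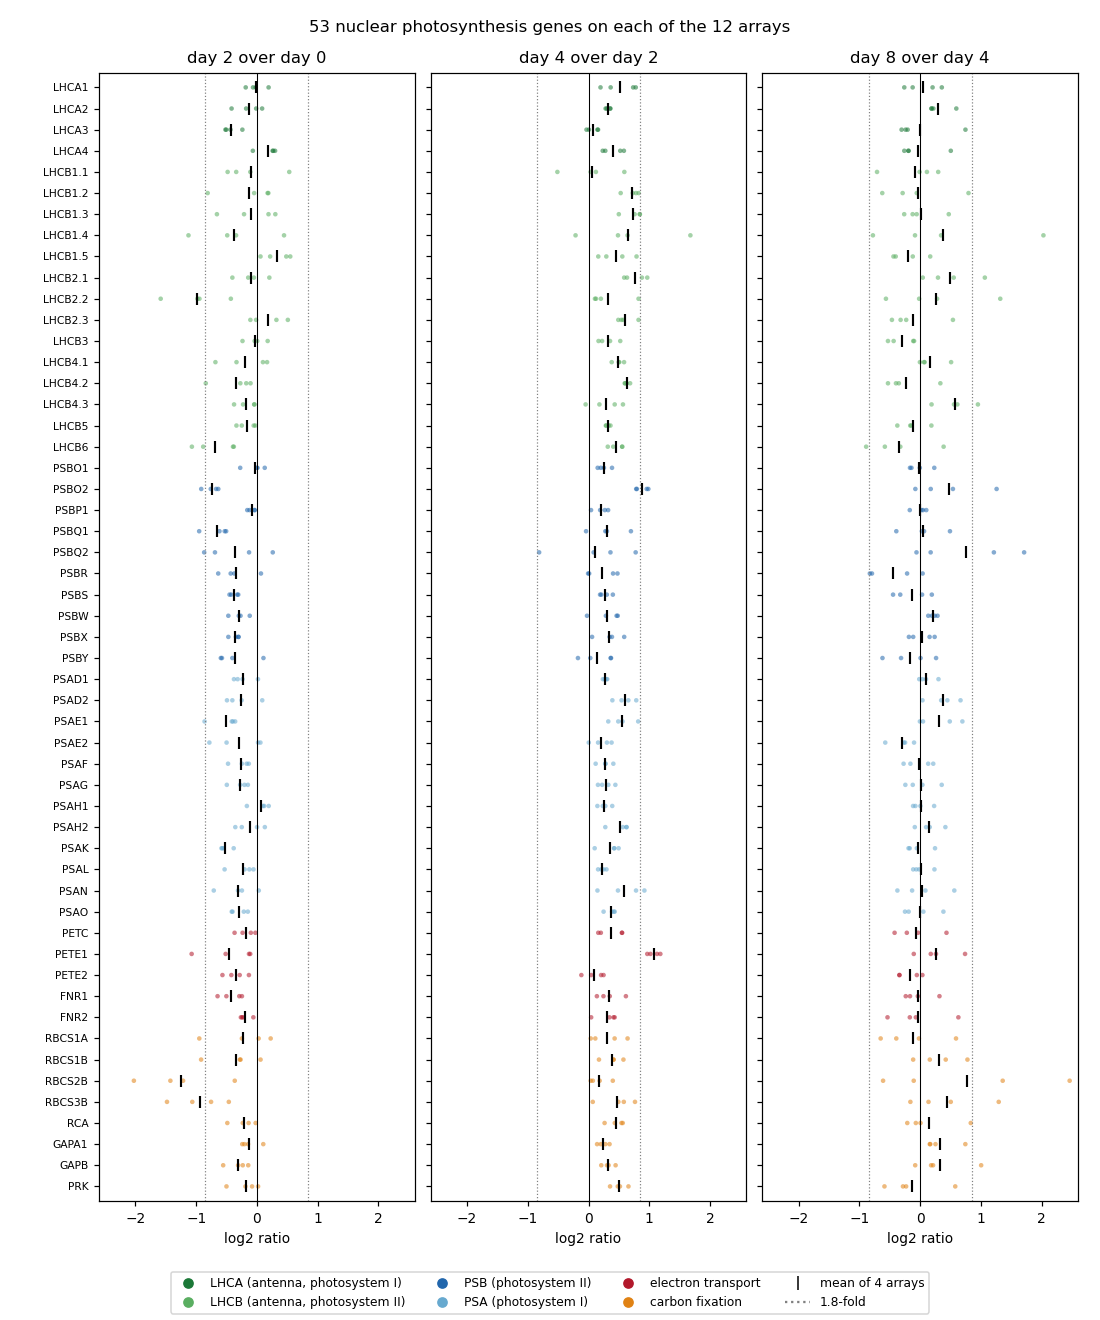
Log2 ratio of the later over the earlier day (x axis) for each of the 53 photosynthesis genes (rows, coloured by role) on the 4 arrays of each step (dots), with their mean (black tick) and the 1.8-fold lines (dotted). The dots lie mostly below 0 in the left panel, mostly above 0 in the middle panel and around 0 in the right panel, and 5 genes were called at a step.

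At day 2 over day 0, 24 of the 53 genes fell at an adjusted p below 0.05 in limma (45.3%) and 1 rose (1.89%). Over all genes the shares were 31.8% lower and 18.0% higher. With the 1.8-fold minimum, 3 photosynthesis genes were called lower and 0 higher, where 5.42% of all genes were called lower and 8.47% higher. Without the day 2 over day 0 arrays of sets 3 and 4, 1 of the 53 fell (PSAK) and 1 rose (LHCB1.5) at an adjusted p below 0.05, where 14.9% of all genes fell and 11.9% rose, and the median was -0.15, against -0.09 over all genes. The single gene values at day 2 below come from all 12 arrays, and no other of the 53 passed without these 2. Array by array, the median over the 53 genes was -0.22, -0.13, -0.28 and -0.40 in sets 1 to 4, against -0.12 to -0.08 over all genes. On 27 of the 53 genes all 4 arrays lay below 0 (50.9%), against 35.4% of all genes.

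At day 4 over day 2, 35 of the 53 genes rose at an adjusted p below 0.05 (66.0%) and 0 fell, while 16.1% of all genes rose and 12% fell. At 1.8-fold, 2 were called higher and 0 lower, where 3.23% of all genes were called higher and 5.58% lower. The sets agreed closely, with medians of 0.32, 0.29, 0.40 and 0.41, and 43 of the 53 genes were above 0 on 4 of 4 arrays (81.1%), against 25.6% of all genes. Within the slide of sets 1 and 2 the mean of the array medians was 0.31, and within the slide of sets 3 and 4 it was 0.41. With 3 sets in place of 4, the number that rose at an adjusted p below 0.05 was 14, 22, 12 and 29 without sets 1, 2, 3 and 4.

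At day 8 over day 4 the sets parted. Of the 53 genes, 8 rose and 3 fell at an adjusted p below 0.05 (15.1% and 5.66%), both below the shares over all genes, 24.0% and 34.6%. With the 1.8-fold minimum limma called 0 of the 53 (at an unadjusted p below 0.05, 10 were higher and 5 lower), where 12.3% of all genes were called higher and 5.22% lower. The median of the 53 was -0.21, -0.02 and -0.05 in sets 1 to 3 and 0.38 in set 4, and 12, 26 and 22 of the 53 were above 0 in sets 1 to 3 but 47 in set 4. Set 4 gave the highest of the 4 values for 44 of the 53 genes at this step and the lowest for 32 at day 2 over day 0. Over all genes the array medians at day 8 over day 4 ran only from -0.12 to -0.04. Without set 4, 5 genes rose and 13 fell at an adjusted p below 0.05, with a median of -0.07. Without set 1, 9 rose and 0 fell, and without set 3, 3 rose and 0 fell. At 1.8-fold RBCS2B was called higher without set 1 (1.15, adjusted p = 0.0295) and PSBQ2 without set 4 (1.1, adjusted p = 0.0197). The mean of the array medians was -0.12 on the slide of sets 1 and 2 and 0.16 on the slide of sets 3 and 4. At the same step the stress and touch list had medians of 2.70, 1.93, 1.26 and 1.18 in sets 1 to 4, so that set 4 was lowest there, and the part of this in the set 4 values was not tested.

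**Figure D2:**
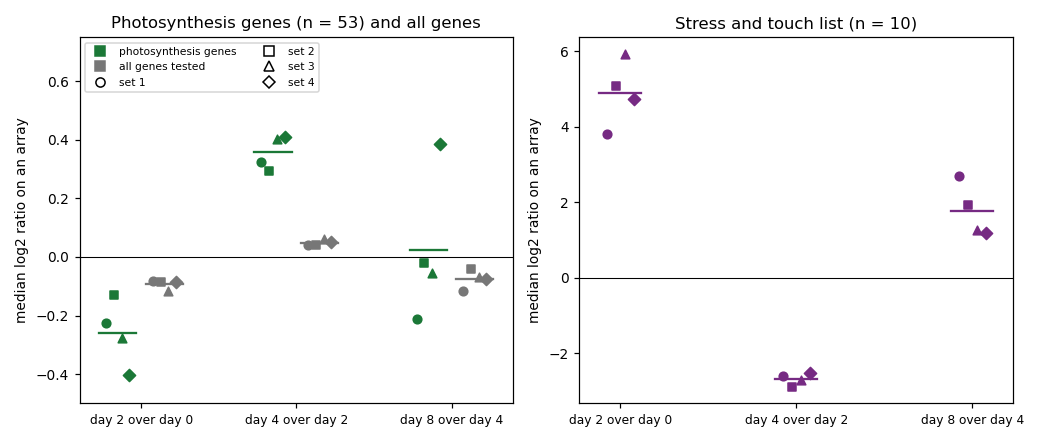
Median log2 ratio of the later over the earlier day on each array (y axis), for the 53 photosynthesis genes and all genes tested (left) and the 10 stress and touch genes (right, other scale), by step (x axis) and replicate set (marker shape), with bars at the mean of 4 arrays. The photosynthesis medians lie between -0.40 and -0.13 at day 2 over day 0 and between 0.29 and 0.41 at day 4 over day 2, and set 4 stands alone at 0.38 at day 8 over day 4.

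Between day 8 and day 0, which shared no array, the sum of the 3 steps was above 0 for 36 of the 53 genes (67.9%, against 42.4% of all genes). It was higher at an adjusted p below 0.05 for 13 genes and lower for 1 (24.5% and 1.89%), against 21.3% higher and 29.4% lower over all genes. Called at 1.8-fold were 2 higher and 0 lower, where 14.9% of all genes were called higher and 11.2% lower. The SE and adjusted p of a sum treat the 3 steps as independent, though neighbouring steps share an extract. They do not measure the spread of the sums across sets. Summed within a set, the median was -0.00, 0.20, 0.12 and 0.46 in sets 1 to 4. Leaving out set 1, 2, 3 or 4 left 5, 5, 1 and 7 genes higher at an adjusted p below 0.05. The moderated F test over the 3 steps was passed by 46 of the 53 genes, where 75.9% of all genes passed it. The 7 that did not pass it were LHCA3, LHCB1.1, LHCB1.4, PSBO1, PSBQ2, FNR2 and RBCS1A.

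A dip at day 2 followed by a rise at day 4 was the common course of the 53 genes. The whole array leaned the same way: 63.3% of all genes were below 0 at day 2 and 60.9% above 0 at day 4, each step taken by itself. Among the 53 the fitted change was below 0 at day 2 and above 0 at day 4 for 49 genes. For 14 of these both passed an adjusted p below 0.05, where 1648 of all 20905 genes did so. Both steps use the day 2 extract of a set, so an error in that extract moves them in opposite directions. Its part in these counts was not tested. Without the 2 arrays of day 2 over day 0 whose scanner files did not match, 1 of the 53 genes fell at day 2 (PSAK). That leaves at most 1 gene that could pass at both steps. The dip was deeper among the dimmer genes: the 27 brightest had a median of -0.18 at day 2 and the 26 dimmest -0.35, while at day 4 the medians were 0.37 and 0.32. Across the 53 genes the change at day 2 correlated with the mean log2 brightness of the probe at Pearson's r = 0.47 (Spearman's rho = 0.51), a description across genes that share arrays and are not independent.

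By their brightest probes, the antenna proteins of photosystem I showed the smallest dip. The dimmer probe of LHCA1 went otherwise, with -0.57 at day 2 (adjusted p = 0.0109 in limma) and -0.44 at day 8 over day 4 (adjusted p = 0.0327). The brighter probe of LHCA1 gave -0.02 and 0.05 at these steps. The 4 LHCA genes had medians of -0.07, 0.36 and 0.02 at the 3 steps, with 1 lower at day 2 (0 without the arrays of sets 3 and 4, median 0.02), 3 higher at day 4 and 1 higher at day 8 at an adjusted p below 0.05. LHCA4 (AT3G47470), a subunit of the antenna belt, gave 0.26, 0.27, 0.30 and -0.07 at day 2 over day 0 and 0.23, 0.52, 0.28 and 0.58 at day 4 over day 2. Only its set 4 value at day 2 was below 0, and its day 8 over day 0 sum was 0.56 ± 0.19 (SE, n = 4 arrays per step, adjusted p = 0.0259 in limma). LHCA3 (AT1G61520) gave -0.52, -0.44, -0.50 and -0.24 at day 2 and fell by 0.42 ± 0.14 (adjusted p = 0.0269, or 0.140 without the arrays of sets 3 and 4). Later, at day 8 over day 4, it was -0.24, -0.30 and -0.21 in sets 1, 3 and 4 and 0.75 in set 2, on the array with the many outlier marks. Its probes disagreed: the fall at day 2 is that of the brighter, while the dimmer gave -0.06 (adjusted p = 0.675). From day 0 to day 8 the brighter summed to -0.35 and the dimmer to 0.37, neither past the test.

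The 14 LHCB genes, which encode the trimeric antenna (LHCB1 to LHCB3) and the minor antenna proteins (LHCB4 to LHCB6) of photosystem II, had the largest median rise at day 4, 0.48, and 9 of them rose at an adjusted p below 0.05. Their median was -0.14 at day 2 (1 higher, 3 lower; without the arrays of sets 3 and 4 it was -0.05, with 1 higher and 0 lower) and -0.06 at day 8 over day 4 (2 higher, 1 lower). The per-array medians of the group at day 4 were the tightest of the 6 role groups, from 0.50 to 0.58.

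LHCB2.1 (AT2G05100) was the member with the largest sum from day 0 to day 8. Its ratio was 0.88, 0.63, 0.97 and 0.59 at day 4 over day 2 and 0.29, 0.04, 0.55 and 1.07 at day 8 over day 4, above 0 on each of these 8 arrays. At day 2 it was -0.14, -0.05, 0.20 and -0.40, around 0. The sum was 1.16 ± 0.24 (2.23-fold, adjusted p = 0.00150), and it was called higher. LHCB2.3 (AT3G27690) was also higher at day 4, at 0.57, 0.54, 0.49 and 0.82, but gave -0.46, -0.32, -0.23 and 0.54 at day 8 over day 4. LHCB2.1 minus LHCB2.3 at that last step was 0.76, 0.36, 0.78 and 0.53, positive on 4 of 4 arrays (mean 0.61 ± 0.20, SD, n = 4, exact two-sided permutation p = 0.125, the smallest that 4 arrays allow).

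Within LHCB1, LHCB1.3 (AT1G29930) and LHCB1.2 (AT1G29910) had the largest changes at day 4. LHCB1.3 was 0.76, 0.50, 0.84 and 0.85 (0.74 ± 0.14, adjusted p = 0.00158) and LHCB1.2 was 0.83, 0.53, 0.73 and 0.78 (0.72 ± 0.20, adjusted p = 0.0173). Both were high in all 4 sets. LHCB1.5 (AT2G34420) was the 1 photosynthesis gene that rose at day 2, at 0.06, 0.55, 0.48 and 0.22 (0.33, adjusted p = 0.00891). LHCB1.4 (AT2G34430) was erratic, from -0.78 in set 1 to 2.03 in set 4 at day 8 over day 4, and passed no test in the fit of all arrays. Without set 4 it was called higher at day 4 over day 2 (0.92, adjusted p = 0.0444). The genes LHCB1.1, LHCB1.2 and LHCB1.3 are near-identical copies, as are LHCB2.1 and LHCB2.2, so a probe may take up RNA of its neighbours and their separate values are uncertain.

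LHCB2.2 (AT2G05070) was called lower at day 2, at -1.58, -0.95, -0.43 and -0.98, but its probe was dim. It was well above background in 1 of 2 channels of day 0 and in 0 of 6 of day 2 among the 10 matching arrays. The size of the fall is therefore undetermined, and the fitted -0.98 ± 0.29 (adjusted p = 0.0149 in limma) rests largely on values near background. The call was lost without set 1 (adjusted p = 0.0697), without set 4 (0.0823) and without the day 2 over day 0 arrays of sets 3 and 4 (0.0502).

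Among the minor antenna genes LHCB6 (AT1G15820) had the deepest dip, -0.38, -0.39, -1.07 and -0.88 at day 2, below 0 in all sets (-0.68 ± 0.18, adjusted p = 0.00698, or 0.265 without the arrays of sets 3 and 4). At day 4 it was 0.32, 0.56, 0.55 and 0.41, and at day 8 over day 4 it was -0.89, -0.58, -0.33 and 0.39, with set 4 apart. Its sum of -0.58 ± 0.31 was the lowest of the 53 and did not pass the test (adjusted p = 0.137). LHCB4.3 (AT2G40100), a minor antenna protein known to be induced in strong light, behaved otherwise: 0.19, 0.61, 0.56 and 0.95 at day 8 over day 4 (0.58 ± 0.13, adjusted p = 0.00232), where LHCB4.1 minus LHCB4.3 was negative on 4 of 4 arrays, from -0.56 to -0.13.

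The 10 PSB genes encode the oxygen-evolving complex (PSBO, PSBP, PSBQ), small subunits and PSBS, the sensor for heat dissipation of excess light. At day 2 the median was -0.36 and 7 of 10 were lower at an adjusted p below 0.05. Without the day 2 over day 0 arrays of sets 3 and 4, the median was -0.23 and 0 of 10 were lower. At day 4 the median was 0.26 with 6 higher, and at day 8 over day 4 it was 0.01 with 1 higher and 1 lower.

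PSBO2 (AT3G50820), 1 of 2 forms of the protein that stabilises the manganese cluster, fell at day 2 and rose at day 4. It was -0.64, -0.67, -0.76 and -0.92 at day 2 (-0.75 ± 0.15, adjusted p = 0.00165, or 0.0584 without the arrays of sets 3 and 4) and 0.96, 0.79, 0.80 and 0.99 at day 4 (0.88 ± 0.15, 1.84-fold, adjusted p = 0.000949), and it was called at day 4. The replicate ranges were narrow and lay on opposite sides of 0 at these steps. The day 4 change was 0.84, just under 1.8-fold, without set 1 and likewise without set 4. In the last step it was -0.08, 0.18, 0.54 and 1.26, with set 4 highest (0.47, adjusted p = 0.0187). The other form, PSBO1 (AT5G66570), stayed near 0 at day 2 with 0.13, 0.01, 0.00 and -0.27. PSBO1 minus PSBO2 was 0.76, 0.68, 0.76 and 0.64 at day 2 and -0.81, -0.58, -0.54 and -0.60 at day 4, with 1 sign on 4 of 4 arrays at each (exact two-sided permutation p = 0.125, 0.286 after adjustment over the 48 paralog comparisons).

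PSBQ2 (AT4G05180) was dim, well above background in 7 of 20 channels, and scattered: 1.21, 1.71, 0.17 and -0.06 at day 8 over day 4 (0.76 ± 0.33, adjusted p = 0.0687). PSBR (AT1G79040), a small subunit of photosystem II, had the lowest change of the 53 at day 8 over day 4, at -0.83, -0.21, -0.79 and 0.04 (-0.45 ± 0.13, adjusted p = 0.0115), with sets 1 and 3 low. In these sets the later day was in Cy5, so that set and dye cannot be told apart. PSBQ1, PSBX and PSBS were lower on 4 of 4 arrays at day 2, with fitted changes of -0.65, -0.36 and -0.38, while PSBP1 stayed within -0.16 and -0.04.

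The 12 PSA genes encode the stromal and membrane subunits that surround the core of photosystem I. At day 2 the median was -0.27 and 8 were lower at an adjusted p below 0.05, while without the day 2 over day 0 arrays of sets 3 and 4 it was -0.19 and 1 was lower. At day 4 the median was 0.32 and 11 of 12 were higher, the exception being PSAE2. PSAK, which binds the antenna to photosystem I, was -0.57, -0.38, -0.55 and -0.58 at day 2 (-0.52, adjusted p = 0.000277), the smallest adjusted p of the 53 at that step, and -0.48 without the arrays of sets 3 and 4 (adjusted p = 0.0196). PSAD2 (AT1G03130), a ferredoxin-docking subunit, was 0.79, 0.39, 0.54 and 0.66 at day 4 and 0.04, 0.45, 0.35 and 0.67 at day 8 over day 4, above 0 on 8 of 8 arrays, with a sum of 0.70 ± 0.21 (adjusted p = 0.0131). PSAE2 (AT2G20260) was -0.27, -0.57, -0.25 and -0.10 at day 8 over day 4 (-0.30 ± 0.09, adjusted p = 0.0177) and summed to -0.39 ± 0.16, the lowest of the PSA genes (adjusted p = 0.0685). Its paralog PSAE1 was higher at that step, and PSAE1 minus PSAE2 was 0.27, 1.06, 0.30 and 0.80, positive on 4 of 4 arrays. PSAN had 2 probes that disagreed in sign from day 0 to day 8: 0.31 for the brighter (adjusted p = 0.347) and -0.88 for the dimmer (adjusted p = 0.0328), which was called lower.

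The 5 genes of electron carriers and their reductases had a median of -0.35 at day 2, with 3 lower at an adjusted p below 0.05 in limma. Without the day 2 over day 0 arrays of sets 3 and 4 the median was -0.27 and none was lower. Plastocyanin, the copper protein that carries electrons from the cytochrome b6f complex to photosystem I, has a pair of genes that parted at day 4. PETE1 (AT1G76100) was 1.18, 1.02, 1.13 and 0.97 at day 4 over day 2, the largest change of the 53 at that step and called (1.07 ± 0.14, 2.11-fold, adjusted p = 0.000103). PETE2 (AT1G20340) was 0.04, -0.12, 0.21 and 0.25 at the same step (0.10 ± 0.08, adjusted p = 0.401). Their values did not overlap, and PETE1 minus PETE2 was 1.14, 1.14, 0.92 and 0.72 (mean 0.98 ± 0.20, SD, n = 4, exact two-sided permutation p = 0.125). At day 2 the pair did not differ in 1 direction: -0.13, -0.51, -0.11 and -1.07 for PETE1 and -0.42, -0.13, -0.57 and -0.28 for PETE2. There PETE1 minus PETE2 was 0.29, -0.38, 0.46 and -0.79, and its sign changed with the dye of the later day. From day 0 to day 8 PETE1 was called higher (0.89 ± 0.24, adjusted p = 0.00870) and PETE2 was lower (-0.43 ± 0.13, adjusted p = 0.0175), the 1 gene of the 53 that fell. The PETE1 call was lost without any 1 of the 4 sets, with adjusted p = 0.0524, 0.0519 and 0.0657 without sets 1, 2 and 3, and with a change of 0.83, under 1.8-fold, without set 4. PETC, the Rieske iron-sulphur protein, and FNR1 rose at day 4 (0.37 and 0.34, adjusted p = 0.00855 and 0.0419), and FNR2 was 0.31 (adjusted p = 0.112).

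**Figure D3:**
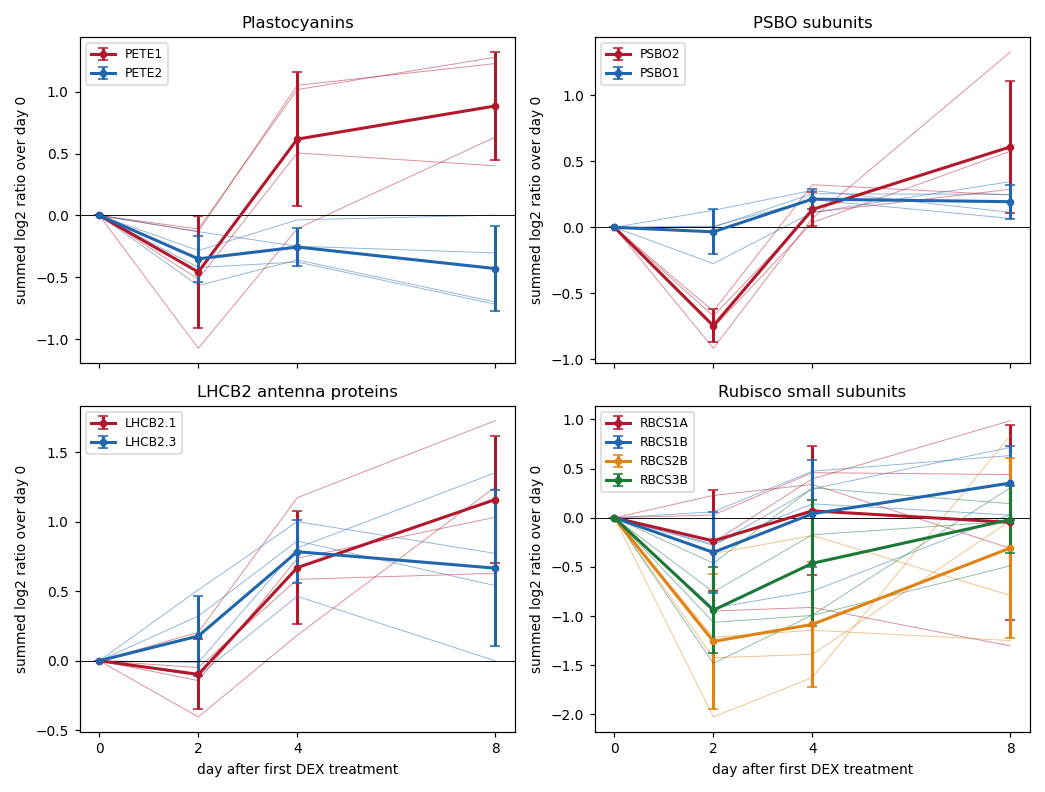
Summed log2 ratio over day 0 (y axis) by day after the start of DEX (x axis) for genes of the same subunit: thin lines are the 4 replicate sets, thick lines with bars their mean and SD. PETE1 and PETE2 part at day 4, PSBO1 and PSBO2 at day 2, and RBCS2B and RBCS3B lie lowest of the Rubisco genes at day 2.

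The 8 carbon fixation genes had a median of -0.27 at day 2 and 0.36 at day 4, with 2 lower and 3 higher at an adjusted p below 0.05. Without the day 2 over day 0 arrays of sets 3 and 4, the day 2 median was -0.09 and 0 were lower. At day 8 over day 4 their median was 0.32, the highest of the 6 role groups, but the array medians ran from -0.19 to 0.81 and 2 genes passed. Rubisco small subunits are encoded by RBCS1A and by the tandem genes RBCS1B, RBCS2B and RBCS3B, whose sequences are near-identical, so that their separate values are uncertain.

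RBCS2B (AT5G38420) had the lowest change of the 53 at day 2, at -0.36, -1.42, -1.22 and -2.03 (-1.26 ± 0.38, 2.39-fold lower, adjusted p = 0.0164), and was called. RBCS3B (AT5G38410) was -0.46, -1.06, -0.75 and -1.48 (-0.94 ± 0.21, 1.92-fold lower, adjusted p = 0.00286), and was also called. In both, set 4 was lowest and set 1 highest, and the values in the 4 sets were below 0. Sets 2 and 4, with the later day in Cy3, lay below sets 1 and 3 in both genes. RBCS1A (AT1G67090) was 0.23, 0.03, -0.95 and -0.25 at the same step (-0.24 ± 0.17), on both sides of 0. RBCS1A minus RBCS2B was 0.59, 1.45, 0.27 and 1.78 (mean 1.02 ± 0.71, SD, n = 4, exact two-sided permutation p = 0.125). The RBCS2B call was lost without set 2 (adjusted p = 0.121), without set 3 (0.0689), and without the arrays of sets 3 and 4 (-0.89, adjusted p = 0.237). RBCS3B fell below 1.8-fold without set 4 (-0.79) and its adjusted p was 0.0804 without the arrays of sets 3 and 4. In the last step RBCS2B was -0.61, 1.36, -0.10 and 2.46 (0.78 ± 0.38, adjusted p = 0.101), with sets 2 and 4 high. These are the sets with the later day in Cy3, so that set and dye cannot be told apart there.

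GAPA1 (AT3G26650), a subunit of the chloroplast glyceraldehyde phosphate dehydrogenase, was 0.16, 0.25, 0.17 and 0.75 at day 8 over day 4 (0.33 ± 0.08, adjusted p = 0.00360), above 0 in each set with set 4 apart. It had the largest sum of the carbon fixation genes, 0.45 ± 0.14 (adjusted p = 0.0168). Rubisco activase (RCA) and phosphoribulokinase (PRK) rose at day 4, by 0.45 and 0.50 (adjusted p = 0.0176 and 0.0186).

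Over the 16 paralog pairs and 3 steps, 21 of 48 within-array differences had 1 sign on 4 of 4 arrays, and 1 of these had a mean of at least 1, RBCS1A minus RBCS2B at day 2. With 4 arrays the smallest exact two-sided p is 0.125, and 0.286 after adjustment over the 48, so none could pass 0.05.

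Genes of neighbouring pathways, none of them among the 53, moved in part with them. Of 17 chlorophyll synthesis genes tested, 11 rose and 0 fell at an adjusted p below 0.05 at day 4 (median 0.29), among them PORB (0.60), which reduces protochlorophyllide, and CAO (0.54), which makes chlorophyll b. At day 2, 2 rose, HEMA1 and GSA1, which act at the start of the pathway, and 2 fell (median -0.11), and 2 rose and 1 fell without the arrays of sets 3 and 4. Of the photorespiration genes, which recycle the product of Rubisco's oxygenase reaction, 8 of 11 were lower and 0 higher at day 2 (median -0.45), and 4 were higher at day 4. Without the arrays of sets 3 and 4, 1 of 11 was lower at day 2 (median -0.36). Of 15 other Calvin cycle genes, 9 fell and 1 rose at day 2 (median -0.33), and 1 fell and 1 rose without those arrays (median -0.20). The 1 that rose was CP12-3 (0.90, called, but 0.81 and under 1.8-fold without set 2), while CP12-2, another of the small proteins that bind GAPDH and PRK, was called higher at day 8 over day 4 (1.23). Of 23 other thylakoid proteins, 9 fell and 1 rose at day 2 (3 and 0 without those arrays). At day 4, 6 rose and 1 fell, the 1 being ELIP2 (-0.84), a protein induced by light stress. Lower at day 2 were 31.8% of all genes, and 14.9% without those arrays. For photorespiration these shares were 72.7% and 9.09%, and for the other Calvin cycle genes 60% and 6.67%. For these thylakoid proteins they were 39.1% and 13%, and for chlorophyll synthesis 11.8% and 5.88%. Without those arrays the shares rest on 1 to 3 genes of a list, so that their place below all genes says little. At day 4, where 16.1% of all genes rose, 64.7% of the chlorophyll synthesis genes, 36.4% of the photorespiration genes and 26.1% of these thylakoid proteins rose. For the other Calvin cycle genes 3 of 15 rose (20%) and 1 fell, near the share over all genes. Probes of the 12 plastid-encoded partners listed, such as RBCL and PSBA, were not analysed here.

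**Figure D4:**
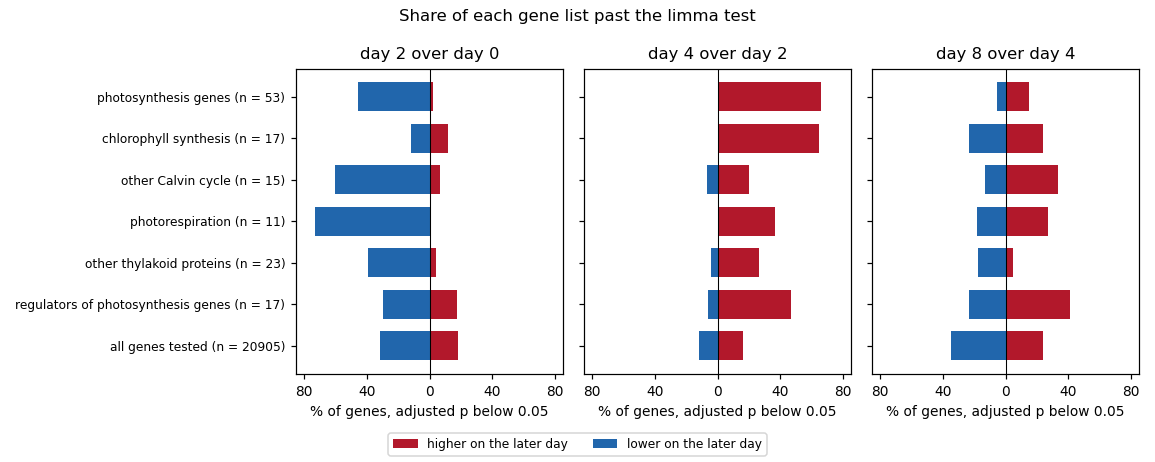
Percentage of the genes of each list at an adjusted p below 0.05 (x axis) that were higher (right of 0) or lower (left of 0) on the later day, at each step, with the number tested in brackets and all genes in the bottom row. At day 4 over day 2 the photosynthesis genes reach 66.0% higher and 0 lower, beside 16.1% and 12% of all genes.

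Among the listed regulators of photosynthesis genes, 3 were called lower at day 2: GLK1, GNC and CGA1. GLK1 (AT2G20570), which activates antenna and chlorophyll genes, was -0.99, -1.10, -0.82 and -2.08 at day 2 (-1.25 ± 0.17, 2.38-fold lower, adjusted p = 7.14e-05), 0.27, 0.07, 0.56 and 0.21 at day 4 (0.28 ± 0.17, adjusted p = 0.257), and 1.16, 1.36, 1.02 and 1.58 at day 8 over day 4 (1.28 ± 0.17, adjusted p = 4.47e-05). The ratio was below 0 in each set at day 2 and above 0 in each at day 8 over day 4. The sum from day 0 to day 8 was 0.31 ± 0.29 (adjusted p = 0.404). GLK2, its paralog, moved less, by -0.39, 0.44 and 0.19 at the 3 steps.

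The GATA factors GNC (AT5G56860) and CGA1 (AT4G26150), known to promote greening and chloroplast growth, also dipped and rose. GNC was -1.63, -0.61, -1.06 and -1.82 at day 2 (-1.28 ± 0.19), 1.33, 1.18, 0.54 and 1.04 at day 4 (1.02 ± 0.19) and 0.96, 1.29, 0.61 and 1.69 at day 8 over day 4 (1.14 ± 0.19), called at each step. CGA1 was -2.49, -0.87, -0.84 and -1.83 at day 2 (-1.51 ± 0.30), 1.72, 1.25, 0.69 and 1.54 at day 4 (1.3 ± 0.30) and 2.72, 2.56, 2.09 and 1.36 at day 8 over day 4 (2.18 ± 0.30, 4.53-fold), also called at each step. The sign was the same on 4 of 4 arrays at each step for both genes. The CGA1 probe was well above background in 2 of 6 channels of day 2, so its changes into and out of day 2 rest on few measured values. At day 8 over day 4, where set 4 was highest for 44 of the 53 genes, it was also highest for GLK1 and GNC and lowest for CGA1. The GNC change at day 4 was 0.85, under 1.8-fold, without set 1. With normexp and loess on the 10 matching scanner files the step calls of GLK1, GNC and CGA1 were lost: at day 2 the changes were -0.69, -0.81 and -0.28 for GLK1, GNC and CGA1 (adjusted p = 0.0311, 0.0241 and 0.363).

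Of all 17 regulators listed, 5 were lower and 3 higher at day 2, 8 higher and 1 lower at day 4, and 7 higher and 4 lower at day 8 over day 4, at an adjusted p below 0.05. These were 29.4% lower and 17.6% higher at day 2, near the 31.8% and 18.0% of all genes, 47.1% higher at day 4, against 16.1%, and 41.2% higher and 23.5% lower at day 8 over day 4, against 24.0% and 34.6%. Without the arrays of sets 3 and 4, 4 were lower and 2 higher at day 2. HY5 and HYH mediate light signals. HYH was higher at day 2 (0.76) and lower at day 4 (-0.53) and day 8 (-0.58), and HY5 was higher at day 2 (0.36) and lower at day 8 (-0.71). PIF5, a phytochrome-interacting factor, was called higher at day 8 over day 4 (1.02) and from day 0 to day 8 (1.37, 2.58-fold). SIG4, also on the list, was called higher from day 0 to day 8 (1.18, 2.26-fold, adjusted p = 0.0152 in limma). The SIG4 call was lost under 4 of the 17 alternatives.

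**Figure D5:**
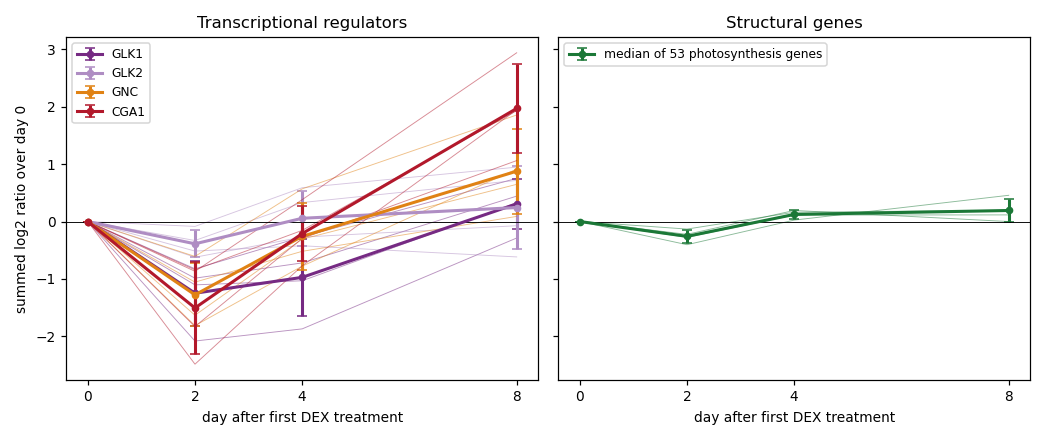
Summed log2 ratio over day 0 (y axis) by day after the start of DEX (x axis) for 4 transcriptional regulators (left) and the median over the 53 photosynthesis genes (right) on the same scale: thin lines are the 4 replicate sets, thick lines with bars their mean and SD. At day 8 the mean is 1.97 for CGA1, 0.88 for GNC and 0.31 for GLK1, and at day 2 that of CGA1, from a probe dim at that day, is -1.51. A median over 53 genes varies less than a single gene, so that the panels are not compared in size.

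Markers of epidermal cells, of leaf ageing and of root were measured at the same steps. Of 8 genes of the stomatal lineage and guard cells, 5 were lower at day 2 (62.5%, against 31.8% of all genes), and 3 without the arrays of sets 3 and 4. At day 4, 3 were higher (SPCH 0.94, EPF2 1.83 and TMM 1.61), 37.5% against 16.1%. At day 8 over day 4, 7 were higher (87.5%, against 24.0%) and KAT1 was lower (-0.84). The KAT1 probe was well above background in 0 of 4 channels of day 8, so the size of its fall is undetermined. At day 2 EPF1 was well above background in 1 of 6 channels, and MUTE and MYB60 in 4 of 6. Of 5 chlorophyll breakdown and senescence genes tested, 5 were higher at day 8 over day 4 at an adjusted p below 0.05, against 24.0% of all genes. They include NYE1 (0.88), which removes magnesium from chlorophyll, and PPH (1.05). Of 4 root markers listed, 2 were tested. PYK10 was called higher at day 8 over day 4 (1.77), and COBL9 was well above background in 0 of 2, 0 of 6 and 0 of 8 channels of days 0, 2 and 4 and in 2 of 4 of day 8, so that it passed the filter through day 8 alone and its change there says nothing further. Their part in the values of the photosynthesis genes was not tested.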

How the data were processed

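RNA of 16 inflorescence samples was hybridised on 12 arrays with 2 colours, the later day in Cy5 in sets 1 and 3 and in Cy3 in sets 2 and 4. For each probe the authors deposited a log10 ratio of the Cy5 to the Cy3 channel, background subtracted and dye normalised by Feature Extraction 10.5.1.1. The deposited scanner files also give intensity values and quality marks for each spot. The array follows TAIR8 gene models, 99.3% of the tested loci were found in the TAIR10.1 gene table, and no coordinates are given.

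The ratios were set with the later day on top and expressed on the log2 scale. A probe was kept if at least 50% of the channels of a time point were marked well above background; marks of the 2 mismatching arrays were not used. Outlier spots were left out (718 among tested probes), as was 1 probe that could not be fitted. The number of arrays limits the precision. limma 3.58.1 in R 4.3.3 fitted 1 coefficient per step with a dye term and an intensity trend (8 residual and 12 total degrees of freedom), and p-values were adjusted over all probes. The fit was tested on simulated data with noise independent between arrays and changes set at day 4 over day 2 only. That simulation did not cover extracts shared between arrays. Arrays of neighbouring steps share an extract and were treated as independent. Residuals of arrays of the same set at different steps correlated at -0.38 to -0.01 (median -0.26, 12 pairs), against a median of 0.09 between sets, so the set numbers were not used as a block in the results above.

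The members, lists and pairs were chosen with earlier results of these data known. Genes described in detail were the 5 with the largest change in each comparison, the largest and smallest sums of each role group, members called against their group or with called probes of opposite sign (none was found of either), and paralogs with a mean difference of at least 1 and 1 sign on 4 arrays. Others named were picked after their values were seen. Alternatives were normexp (offset 50) with loess on the scanner files, centring, no filter on dim probes, other fold minimums, any probe of a gene, a slide or set block, and left-out sets. Sequences of promoters, proteins and probes were not used here.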

Additional observations from a re-analysis of the deposited data

Results flagged for a closer look

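Among 183 groups of 4 arrays examined (53 genes and the list medians at 3 steps), 9 held an array far from the other 3 by Dixon's criterion, where chance gives about 1 in 20 (9.15). At day 8 over day 4, set 4 stood apart in LHCA2 (0.60, nearest 0.22), LHCA4 (0.51, nearest -0.19), LHCB4.1 (0.51, nearest 0.07) and GAPA1 (0.75, nearest 0.25), each time as the highest. LHCA3 at that step had set 2 at 0.75, nearest -0.21. At day 2 over day 0, set 4 was apart and lowest in LHCA4 (at -0.067, nearest 0.26) and PSAE1 (-0.86, nearest -0.41), and set 3 in the median of all genes (-0.12, nearest -0.09). LHCB2.2, whose probe was dim, had set 1 at 0.82 at day 4 over day 2, nearest 0.20.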

How the results depend on the processing

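Leaving out each replicate set in turn gave 11 to 19 of the 53 genes lower and 0 to 2 higher at an adjusted p below 0.05 at day 2 over day 0, 12 to 29 higher at day 4 over day 2, 3 to 9 higher and 0 to 13 lower at day 8 over day 4, and 1 to 7 higher and 0 to 2 lower at day 8 over day 0. The calls at 1.8-fold were then 1 to 2 lower at day 2, 1 to 2 higher at day 4, 0 to 1 higher at day 8 over day 4 and 1 higher at day 8 over day 0, and the medians ran from -0.29 to -0.18, from 0.32 to 0.40, from -0.07 to 0.09 and from 0.05 to 0.25. The direction of the day 2 and day 4 medians was kept under every alternative run.

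Normexp and loess on the 10 matching scanner files gave medians of -0.11 at day 2 and 0.20 at day 4, with 0 calls at 1.8-fold in these comparisons and from day 0 to day 8. At an adjusted p below 0.05 it gave 2 lower and 0 higher at day 2, 5 higher at day 4, and 0 in either direction at day 8 over day 4 and over day 0. On all 12 scanner files the medians were -0.045 and 0.20 with 0 calls and 0 genes at an adjusted p below 0.05 in each comparison. The cause was not tested. Without the 2 mismatching arrays, chosen after seeing the data, 0 genes were called lower and 1 was lower at an adjusted p below 0.05 at day 2, with a median of -0.15, and 0 were lower at day 8 over day 0.

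Counts at an adjusted p below 0.05 were added as a result after seeing the data. Centring each array gave 12 lower at day 2, 13 higher at day 8 over day 4, 0 lower at day 8 over day 0 and 1 call at day 4. Without the filter on dim probes 5 were higher at day 8 over day 4 and 8 at day 8 over day 0. With no fold minimum the calls higher and lower were 1 and 24, 35 and 0, 8 and 3, and 13 and 1 in the 4 comparisons. A minimum of 1.5-fold gave 6 lower at day 2, 8 higher at day 4 and 6 higher at day 8 over day 0. Using any probe of a gene gave 6 lower at day 8 over day 4, and 2 lower with 1 call at day 8 over day 0, where PSAN became -0.28 (brightest probe 0.31). The slide as a block gave 2 lower at day 8 over day 0. GNC at day 8 over day 0 was -0.0019 with normexp and 10 arrays, against 0.88.

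With the replicate set as a block, 21 genes were lower and 1 higher at day 2, 30 higher at day 4, 7 higher and 3 lower at day 8 over day 4 and 11 higher and 1 lower at day 8 over day 0, with the calls at 1.8-fold as without it. Among the single genes only the GNC call at day 8 over day 0 was lost under this block (adjusted p = 0.0564). Over 252 gene results and 17 alternatives, 4076 of 4284 stayed on the same side of the threshold with the same direction. A gene called in neither fit counts as staying, and most of the results were not called. This share therefore says little about how firm the calls are. Of the rest, 93 were calls that were lost, 113 were calls that were gained and 2 changed direction.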
